A study of Mus musculus with 12 samples.

Results

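The enteric neuron genes described here are 9 of the 38924 Ensembl genes counted in the proximal colon of 12 mice. They were taken from a list of names (Ret, Elavl4, Uchl1, Nos1, Chat, Vip, Tac1, Prph and Snap25), by a rule that sets no threshold on a measured value, and all 9 were found by symbol. The mice were 6 APC Min/+ mice, which carry 1 truncated copy of the tumor suppressor Apc in every cell, and 6 WT mice. All 12 were female C57BL/6 mice, 6 weeks old, from 1 supplier, and the study kept the genotypes in separate cages, so cage and genotype cannot be told apart. The labels call the tissue mucosa, while the methods of the study describe short sections of colon put whole into RNAlater. RNA was sequenced in paired ends, and 50313805 to 197914821 reads per mouse were counted on genes.

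The gut wall holds its own nervous system, whose cell bodies lie in a plexus between the muscle layers and in another under the mucosa, and whose fibers reach both muscle and epithelium. Excitatory motor neurons release acetylcholine and tachykinins, and inhibitory motor neurons release nitric oxide and vasoactive intestinal peptide (VIP). Because the larger plexus is embedded in muscle, a piece of colon that holds more muscle wall may be thought to hold more neurons, and this is the question put to the 9 genes beside that of genotype.

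The libraries were checked against the label first. The 12 genes of the smooth muscle list (Acta2, Actg2, Myh11, Des, Cnn1, Tagln, Smtn, Lmod1, Synpo2, Myl9, Mylk and Myocd) summed to between 6041 and 8997 CPM (counts divided by library size and TMM factor) per mouse, and the 9 epithelium genes to between 9253 and 15022 CPM. Muscle was thus present in every library labelled mucosa. The APC Min/+ mice M10_2 and M13_1 stood apart at the 4 genes of distal colon identity (Hoxa13, Hoxb13, Hoxd13 and Tgm3). These genes summed to 2791 and 2600 CPM there and to between 1.96 and 7.70 CPM in the other 10 mice. They had been listed because these libraries were already known to stand apart at them. Their sums are thus a description and no independent check of the label. Results for the 9 members are therefore given with these mice, and without them where that changed a direction or a call.

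Per length, Vip was the highest of the 9 genes, at 39.2 ± 12.8 RPKM (CPM per kilobase of gene length, mean and SD over 12 mice). Uchl1 followed with 8.11 ± 2.29 RPKM, Prph with 6.12 ± 1.57 RPKM and Tac1 with 4.97 ± 1.14 RPKM. Each of these last 3 lay within 1 SD of its neighbor in that order, whereas Vip lay far above them. Snap25 (2.29 ± 0.507 RPKM), Ret (1.74 ± 0.661 RPKM), Elavl4 (1.31 ± 0.413 RPKM) and Nos1 (1.14 ± 0.554 RPKM) formed a lower group whose neighbors also overlapped within 1 SD. Chat was the lowest, at 0.408 ± 0.110 RPKM. Its values rest on 43 to 232 counts per mouse, against 2157 to 10670 counts for Vip, so that Chat is the member most exposed to counting error.

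Ret encodes the receptor tyrosine kinase that binds GDNF through a co-receptor and is needed for the enteric nervous system to form. It lies on chromosome 6 (GRCm38, 118151745 to 118197718, reverse strand). Ret ranged from 8.91 to 17.8 CPM with a median of 14.9 CPM in APC Min/+ mice, and in WT mice from 5.32 to 20.8 CPM with a median of 9.15 CPM. The WT mice held both the highest value (M17_2) and the lowest (M17_1), and the groups overlapped. The difference on the log2 scale was 0.30 with a standard error of the same size, and its FDR was 0.915 (edgeR's quasi-likelihood test, Benjamini-Hochberg over all genes tested).

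Elavl4, Uchl1, Prph and Snap25 are expressed across neuron types. Elavl4 encodes the neuronal RNA binding protein HuD, Uchl1 the ubiquitin hydrolase PGP9.5, Prph the intermediate filament peripherin and Snap25 a SNARE protein of vesicle release. Uchl1 (chromosome 5, 66676091 to 66687234, forward strand) ranged from 11.6 to 18.7 CPM with a median of 14.7 CPM among APC Min/+ mice, and from 7.48 to 18.1 CPM with a median of 10.04 CPM in the WT mice. In 4 of 6 WT mice it was below every APC Min/+ mouse, but M17_2 and M19_1 lay inside the APC Min/+ range. Its log2 fold change of 0.40 (standard error 0.20, unadjusted p = 0.0720, FDR = 0.913 by edgeR's quasi-likelihood test) was the closest of the 9 to the threshold on an unadjusted p, and did not pass it.

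Prph (chromosome 15, 99055174 to 99058978, forward strand) was counted at 9.74 to 14.7 CPM with a median of 13.09 CPM in the APC Min/+ mice and at 6.96 to 16.6 CPM with a median of 9.02 CPM in the WT mice. The highest value was again that of the WT mouse M17_2, and 4 of 6 WT mice were below all APC Min/+ mice. Elavl4 (chromosome 4, 110203722 to 110351909, reverse strand) ranged from 5.34 to 10.3 CPM with a median of 8.03 CPM among APC Min/+ mice, and from 2.46 to 9.09 CPM with a median of 6.61 CPM in the WT mice. Snap25 (chromosome 2, 136713453 to 136782428, forward strand) ranged from 13.8 to 19.9 CPM with a median of 16.2 CPM among APC Min/+ mice, and from 8.31 to 18.97 CPM with a median of 14.6 CPM in the WT mice. For both genes the lowest of all 12 values belonged to the WT mouse M18_b, and the groups otherwise overlapped. The log2 fold changes were 0.31 for Prph, 0.29 for Elavl4 and 0.21 for Snap25, with standard errors of 0.19, 0.28 and 0.19.

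Nos1 encodes neuronal nitric oxide synthase, which makes the relaxing transmitter nitric oxide in inhibitory motor neurons. It lies on chromosome 5 (117781032 to 117958840, forward strand) and had the widest spread of the 9 genes, with an SD of 0.77 on the log2 scale over the 12 mice. In the APC Min/+ mice Nos1 was between 6.70 and 21.8 CPM with a median of 15.1 CPM, and in the WT mice between 5.07 and 21.2 CPM with a median of 7.05 CPM. In 5 of 6 APC Min/+ mice it was at 13.9 CPM or above and in 4 of 6 WT mice at 7.12 CPM or below, but M2_A lay with the low WT mice and M17_2 and M19_1 with the high APC Min/+ mice. The log2 fold change was 0.59, the largest of the 9, with a standard error of 0.37 and FDR = 0.913 by edgeR's quasi-likelihood test. Its 95% interval, from -0.21 to 1.38, holds both no difference and a more than 2-fold one, and the annotation marks the Nos1 locus as overlapping another, so its counts may be shared.

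Chat encodes choline acetyltransferase, which makes acetylcholine, and lies on chromosome 14 (32408203 to 32465989, reverse strand). The gene of the vesicular acetylcholine transporter, Slc18a3, lies within the Chat locus and was not analysed here, and the Chat counts may hold its reads. Chat was counted at 0.902 to 1.35 CPM with a median of 1.01 CPM in the APC Min/+ mice and at 0.524 to 1.56 CPM with a median of 1.36 CPM in the WT mice. The WT mice spanned the whole APC Min/+ range, with M18_b lowest. The log2 fold change of -0.19 (standard error 0.24) was smaller than its error.

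Vip encodes the precursor of VIP, a peptide of inhibitory motor neurons and secretomotor neurons, and Tac1 the precursor of substance P and neurokinin A, the excitatory tachykinins. The 2 genes lie on chromosomes 10 (5639218 to 5647617, forward strand) and 6 (7554879 to 7565834, forward strand). They are the peptide genes among the 9, and their levels rose and fell together from mouse to mouse (r = 0.94 and rho = 0.92 over 12 mice, as a description), so the sequences before their starts are shown. RefSeq gives them on GRCm38.p6. Capitals mark the short form of the cyclic AMP response element, TGACG, or its complement on the other strand, CGTCA.
Vip, chr10:5638968-5639217, forward strand: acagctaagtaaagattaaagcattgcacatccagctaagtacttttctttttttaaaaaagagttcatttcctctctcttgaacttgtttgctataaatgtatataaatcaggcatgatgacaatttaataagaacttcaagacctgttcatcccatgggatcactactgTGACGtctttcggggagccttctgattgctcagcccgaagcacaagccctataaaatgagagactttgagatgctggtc
Tac1, chr6:7554811-7554878, forward strand: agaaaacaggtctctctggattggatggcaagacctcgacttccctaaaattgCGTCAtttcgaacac
The Tac1 run stops at the first base that GENCODE places in a transcript, and a further short element begins 43 bases before the RefSeq start. The short element of Vip begins 79 bases before its start. In windows from 250 bases before to 50 bases after the start, the short element was found in either orientation for 5 of the 7 members with a RefSeq entry (Vip, Tac1, Elavl4, Nos1 and Chat, but not Uchl1 and Prph). Counted by window, of which Elavl4 has 4, it was in 7 of the members' 10 windows and, in either orientation, in 20.8% of all 32851 windows. The Elavl4 windows chr4:110287462-110287761 and chr4:110287478-110287777 overlap and hold the same site, which is thus counted in both. The full element TGACGTCA was in none of the members' windows and in 1.79% of all. A match of letters is a description and no sign of binding.

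Vip was counted at 42.0 to 88.0 CPM with a median of 51.3 CPM in the APC Min/+ mice and at 26.3 to 89.4 CPM with a median of 66.1 CPM in the WT mice. The highest mouse of each genotype, M2_A and M17_1, was thus nearly level with that of the other, and M18_b was the lowest. The log2 fold change of -0.064 (standard error 0.27) became 0.057 without M10_2 and M13_1, so Vip had no stable direction. Tac1 ranged from 13.8 to 24.9 CPM with a median of 15.9 CPM among APC Min/+ mice, and from 10.4 to 19.2 CPM with a median of 17.4 CPM in the WT mice. Its mean was higher in the APC Min/+ mice and its median lower, since M2_A and M20_1 stood above all other mice, and the log2 fold change was 0.14 (standard error 0.18).

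**Figure D1:**
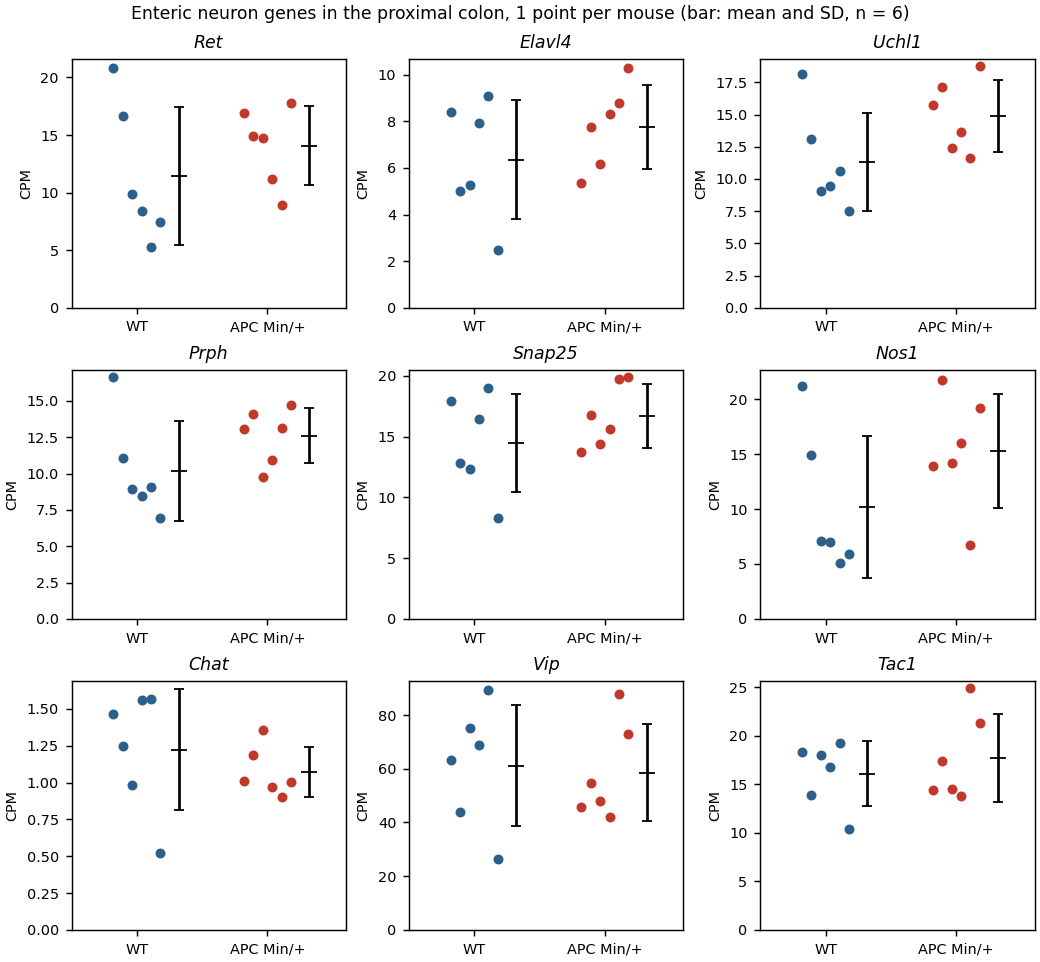
CPM (TMM-scaled, linear axis from 0) of the 9 enteric neuron genes in each of 6 WT mice (blue) and 6 APC Min/+ mice (red), with the mean and SD of each group as a bar. The groups overlap for every gene, and for Nos1 4 WT mice lie at 7.12 CPM or below while 5 APC Min/+ mice lie at 13.9 CPM or above.

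Of the 9 enteric neuron genes, 0 were DEGs (FDR under 0.05 and at least 2-fold) by edgeR's quasi-likelihood test, where 0 of 20311 genes tested did (0%), and 0 passed an unadjusted p under 0.05, where 1079 genes did (5.31%). By DESeq2, edgeR's likelihood ratio test and its exact test the count of members called was 0 as well. The study reports DEGs between the genotypes by edgeR at the same thresholds. In the quasi-likelihood fit the lowest FDR of any gene was 0.913, so its 0 calls do not set the members apart from other genes. Without M10_2 and M13_1, 316 of 19978 genes tested and 0 members had an unadjusted p under 0.05 by that test. The estimate was above 0 for 7 of the 9, with a median log2 fold change of 0.29 against -0.00088 over all genes tested. No interval of the other 8 genes reached a 2-fold difference, as that of Nos1 did. The WT mouse M17_2 was the highest WT mouse for Ret, Nos1, Uchl1 and Prph. Leaving it out brought 3 members to an unadjusted p under 0.05 by edgeR's quasi-likelihood test, where 1219 of 20307 genes tested had one. Leaving out the APC Min/+ mouse M2_A brought 1 member there, where 1822 of 20248 genes tested had such a p. In each case 0 members were called. In bulk tissue, fewer neurons and less RNA per neuron cannot be told apart.

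**Figure D2:**
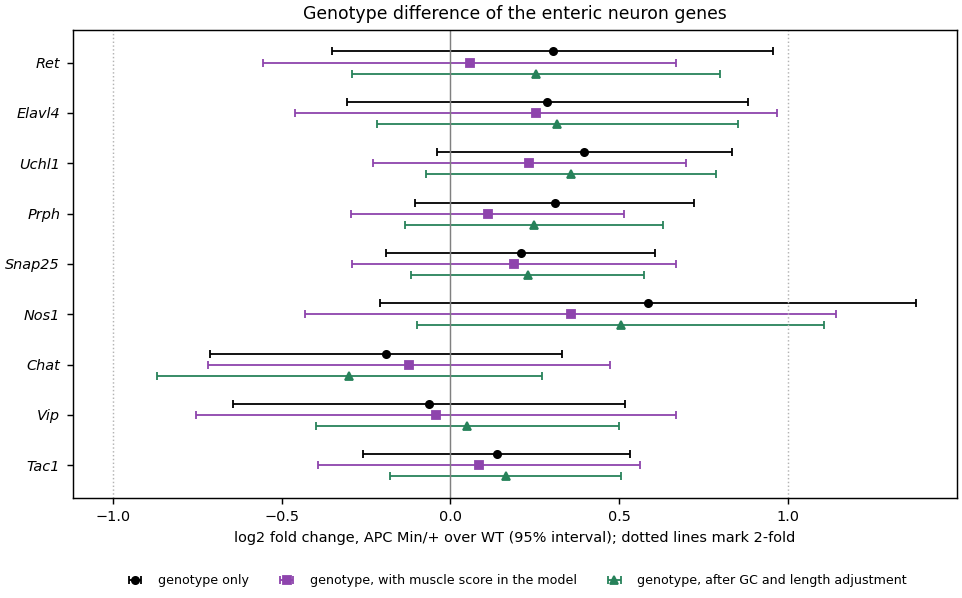
Log2 fold change of APC Min/+ over WT for each enteric neuron gene with its 95% interval, from genotype alone (black circles), with the muscle score as a second term (purple squares) and after adjustment for GC content and length (green triangles). All 27 intervals cross 0, and those of Nos1 extend past the dotted 2-fold line.

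The other neuronal genes gave the same count of calls. Of 10 further genes of the neuronal cytoskeleton and axon 0 passed the DEG threshold and 9 had an estimate above 0, with a median log2 fold change of 0.24. Ina, an intermediate filament gene, had 0.49 (standard error 0.24) and Elavl3 0.40, while Nefl had -0.16 and Stmn3 0.04. Of 10 further genes of synaptic vesicles 0 passed, with a median of 0.17, with values from -0.16 for the syntaxin gene Stx1a to 0.62 and 0.84 for the synapsin genes Syn1 and Syn2. For Syn2 the unadjusted p was 0.0256 and the FDR 0.913 by edgeR's quasi-likelihood test.

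Of the 12 genes of enteric nervous system development, which include the ligand Gdnf of Ret and its co-receptor Gfra1, 0 passed and 1 had an unadjusted p under 0.05, with a median log2 fold change of 0.23. The lowest were the endothelin receptor gene Ednrb (-0.21) and its ligand gene Edn3 (-0.19). The 12 genes summed to 70.3 CPM in M10_2 and to 65.5 CPM in M13_1. In the other APC Min/+ mice they summed to between 118.5 and 146.9 CPM, and in the WT mice to between 84.0 and 134.4 CPM. Fold changes of single genes of the lists without M10_2 and M13_1 are not reported here. The transcription factor gene Phox2a, with means of 0.73 CPM in the APC Min/+ mice and 0.43 CPM in the WT mice, had 0.78. Among 18 other transmitter, peptide and receptor genes tested, 0 passed, from Cartpt (-0.45) and the nicotinic receptor gene Chrnb4 (-0.44) to Dbh (0.67) and Npy (0.77), with a median of 0.12. An unadjusted p under 0.05 was found for 2 of the 18, the serotonin receptor gene Htr3a (0.61, unadjusted p = 0.0142, FDR = 0.913 by edgeR) and the peptide gene Nmu (0.48, unadjusted p = 0.0426, FDR = 0.913 by edgeR). On the side of the target cells, 0 of 11 receptor and effector genes passed. The VIP receptor gene Vipr2 had an estimate of -0.59 on the log2 scale (standard error 0.29) and the muscarinic receptor gene Chrm2 0.54 (standard error 0.26), with Chrm3 at -0.14 and Vipr1 at 0.31.

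Muscle content was measured in 2 ways, as the log2 of the summed RPKM of the 12 smooth muscle genes and as the muscle score, the mean over these genes of log2(CPM + 0.1). The summed level was 11.58 ± 0.26 in the APC Min/+ mice and 11.40 ± 0.12 in the WT mice (log2 RPKM, SD, n = 6). The difference of 0.19 did not pass a two-sided exact permutation test (p = 0.121). It passed when the APC Min/+ mouse M18_2b, the lowest of all 12 mice, was left out (difference 0.28, p = 0.00216 by the exact permutation test). The call thus turns on M18_2b. By the muscle score the groups stood at 8.43 ± 0.15 and 8.23 ± 0.23 (mean log2 CPM, SD, n = 6), a difference of 0.20 (exact permutation p = 0.102). Of the 12 muscle genes 0 passed the DEG threshold and 3 had an unadjusted p under 0.05, among them Des (0.53) and Cnn1 (0.46), both higher in the APC Min/+ mice, while Myh11 (-0.01) and Synpo2 (0.00 after rounding) showed no difference in their estimates.

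The members split in how they followed the muscle score, and this split depended on how muscle content was measured. Over the 12 mice, Pearson's r was 0.68 for Prph (rho = 0.73, permutation p = 0.0125), 0.65 for Ret (rho = 0.66, permutation p = 0.0183), 0.58 for Uchl1 (rho = 0.70, permutation p = 0.0452) and 0.57 for Nos1 (rho = 0.52, permutation p = 0.0466). These 4 genes were higher in mice with a higher score. For Elavl4, Snap25 and Tac1, r was 0.25, 0.25 and 0.24, for Vip 0.0047 and for Chat -0.20 (rho = 0.39, 0.43, 0.30, 0.05 and -0.27), with permutation p between 0.415 and 0.987. The sign for Vip and Chat depended on the scaling of the libraries, with r of -0.037 for Vip under RLE factors and 0.041 for Chat under CPM by total counts, which also raised r of Prph, Ret, Uchl1 and Nos1 to between 0.71 and 0.78. All p-values of this kind are two-sided over 100000 resamples, 9 genes were tested in this way, and the only correction is that of the fit across all genes given next. With the log2 of the summed CPM of the muscle genes in place of the score, the split was gone. By that measure r was 0.61 for Prph (permutation p = 0.0350), 0.56 for Tac1, 0.49 for Snap25, 0.46 for Elavl4, 0.43 for Uchl1, 0.35 for Vip, 0.26 for Ret, 0.21 for Nos1 and -0.16 for Chat, so that of the 4 genes Prph alone kept a permutation p under 0.05. For scale, the 12 muscle genes had r between 0.15 and 0.74, with a median of 0.52, with the score of the other muscle genes.

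**Figure D3:**
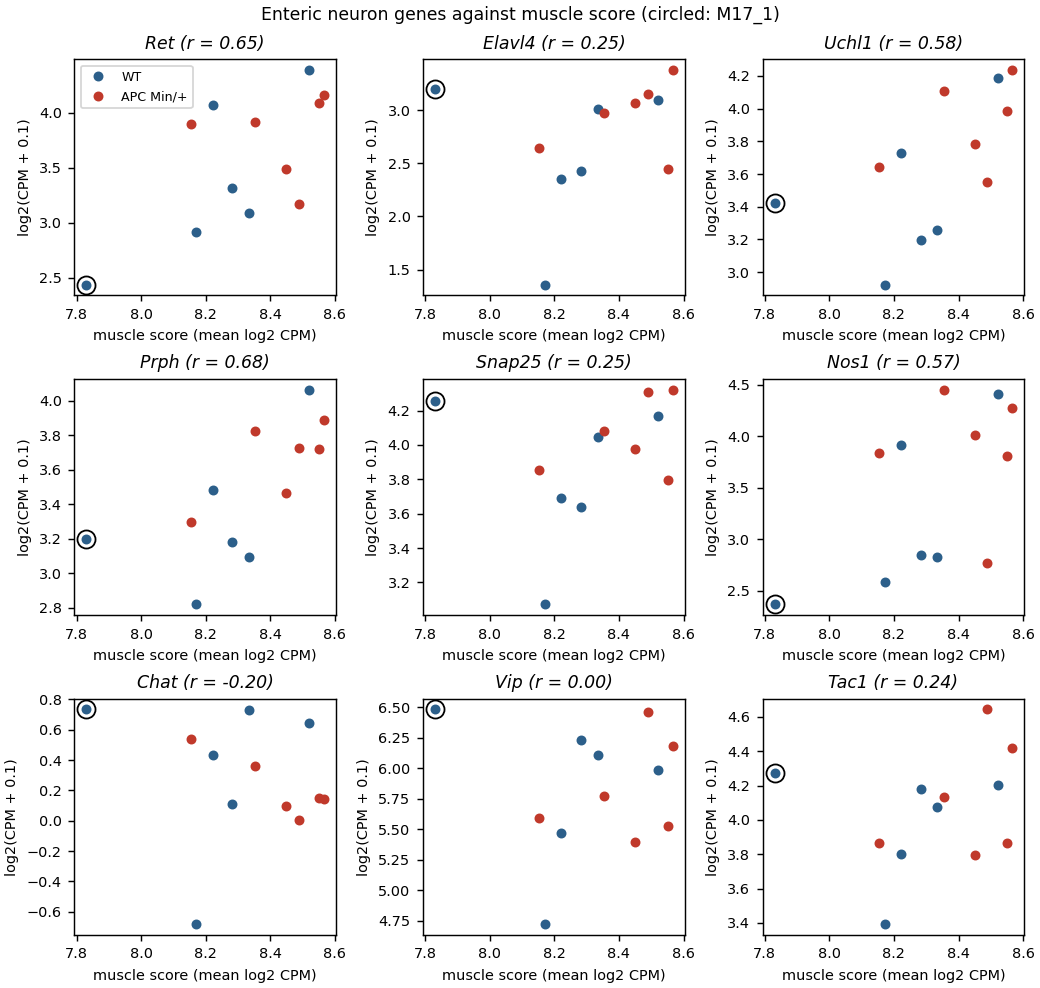
Log2(CPM + 0.1) of each enteric neuron gene against the muscle score (mean log2 CPM of 12 smooth muscle genes) in 12 mice, WT in blue and APC Min/+ in red, with the WT mouse M17_1 circled. Prph rises with the score (r = 0.68), while M17_1, which has the lowest score, is low for Ret and Nos1 and high for Vip and Chat.

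In the fit of genotype and muscle score across all genes, 0 of 20311 genes passed an FDR of 0.05 for the muscle score by edgeR's quasi-likelihood test (0%), 9 members included, and 1071 genes had an unadjusted p under 0.05 (5.27%), of which 606 with a positive slope (2.98% of genes tested). Among the members these were 2 of 9, Ret and Prph. Ret rose by 1.74 on the log2 scale per unit of the score (standard error 0.73, unadjusted p = 0.0339, FDR = 0.825) and Prph by 1.05 (standard error 0.44, unadjusted p = 0.0340, FDR = 0.825). Neither slope survived the correction. Nos1 had a slope of 1.77 (standard error 0.93) and Uchl1 of 0.86 (standard error 0.50), and the slopes of Tac1, Elavl4, Snap25, Vip and Chat lay between -0.36 and 0.25, each smaller than its error. With the score in the model, the genotype estimates moved closer to 0 for all 9 genes, to 0.06 for Ret, 0.11 for Prph, 0.23 for Uchl1 and 0.36 for Nos1, and 0 had an unadjusted p under 0.05, where 604 of all genes tested did (2.97%).

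The relation depended on single mice. M17_1 had the lowest muscle score (7.83 against a median of 8.34) and was in the 7th place of 12 by the summed RPKM of the same genes. Without M17_1, r fell to 0.39 for Ret and 0.38 for Nos1 and rose to 0.66 for Elavl4, 0.69 for Snap25, 0.59 for Tac1 and 0.48 for Vip. Uchl1 rose to 0.66 and Prph to 0.76, and Prph kept a permutation p under 0.05 in each of the 12 sets of 11 mice (r from 0.64 to 0.76). Uchl1 did not keep such a p in 6 of the 12 sets, Nos1 in 7 and Ret in 1. Without M18_b, the lowest mouse for Elavl4, Snap25, Vip, Tac1, Chat, Uchl1 and Prph, r was 0.12 for Elavl4 and 0.11 for Snap25. Leaving out the 2 mice farthest from the median score, M17_1 and M20_1, left r at 0.73 for Prph (permutation p = 0.0186) and 0.59 for Uchl1 (permutation p = 0.0744). It left r at 0.30 for Ret and 0.29 for Nos1, so the relations of Ret and Nos1 rest on those mice. Without M10_2 and M13_1, r was 0.71 for Prph (permutation p = 0.0195), 0.67 for Ret (permutation p = 0.0302), 0.59 for Uchl1 (permutation p = 0.0690) and 0.58 for Nos1 (permutation p = 0.0717).

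Within the genotypes, the 6 WT mice gave r of 0.79 for Ret and 0.71 for Nos1, and the 6 APC Min/+ mice 0.02 and -0.11 (exact permutation p of 0.0542, 0.110, 0.976 and 0.819). The difference in slope between genotypes was tested as an interaction across all genes by edgeR's quasi-likelihood test, and passed for 0 of 20311 genes and for 0 of the 9 members (FDR = 0.726 for Ret and for Nos1). Prph had r of 0.54 in the WT mice and 0.72 in the APC Min/+ mice. Chat had r of -0.87 in the APC Min/+ mice (rho = -0.54, exact permutation p = 0.0264 for r and 0.297 for rho) and 0.03 in the WT mice.

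The 9 genes did not move as 1 group. Among Ret, Nos1, Uchl1 and Prph, the 6 pairs had r between 0.74 and 0.93 over the 12 mice, with a median of 0.85. Among Vip, Tac1, Elavl4 and Snap25, the 6 pairs had r between 0.77 and 0.98, with a median of 0.82, and the highest of all 36 pairs was that of Elavl4 and Snap25. The 16 pairs between these sets had r from -0.19 for Nos1 and Vip to 0.64 for Prph and Snap25, with a median of 0.27. These sets were formed after their values were seen, the values share their libraries, and the correlations are given as a description. M2_A and M17_1 show the split, as both had the highest Vip of their genotype and the lowest Ret and Nos1.

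**Figure D4:**
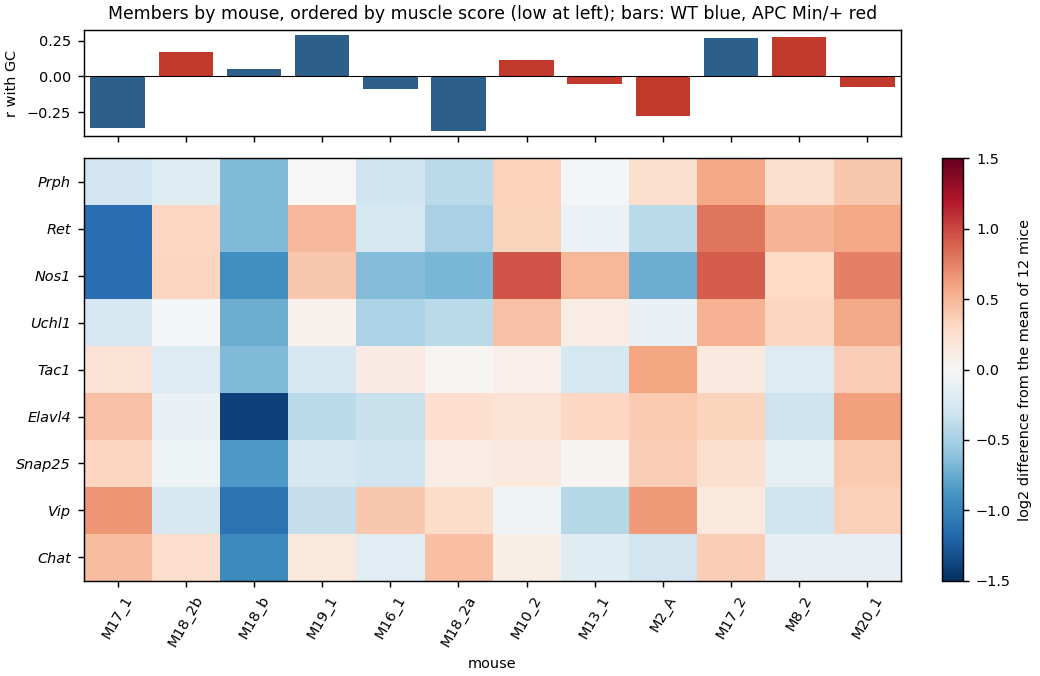
Log2 difference of each enteric neuron gene from its mean over 12 mice (colors, rows are genes), with the mice ordered by muscle score from low at left to high at right. The bars above give, per mouse, the correlation across genes of its expression deviation with transcript GC content, from -0.38 in M18_2a to 0.29 in M19_1, and the columns of M17_1 and M2_A are low for Ret and Nos1 and high for Vip.

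What each set shares besides is the base composition of its transcripts. Ret, Nos1, Uchl1 and Prph have longest transcripts of 51.4%, 53.8%, 56.8% and 60.8% GC, and Vip, Snap25, Elavl4 and Tac1 of 38.7%, 38.7%, 38.9% and 42.8% GC. Chat is GC-rich as well, at 54.3%, but had its higher Pearson's r with the genes of low GC content. This r was 0.64 with Elavl4, 0.62 with Snap25, 0.55 with Vip and 0.38 with Tac1 (rho = 0.25, 0.27, 0.31 and 0.20). It was 0.34 with Uchl1, 0.26 with Prph, 0.21 with Nos1 and 0.15 with Ret (rho = 0.15, 0.04, 0.08 and 0.08). M18_b was the lowest mouse for Chat, for the genes of low GC content and for Uchl1 and Prph. The r of these pairs without M18_b is not given here. The libraries differed in how their values followed GC content. Across 14945 genes, the deviation of a library from the median of the 12 was correlated with GC content. This r ran from -0.38 in M18_2a, -0.36 in M17_1 and -0.27 in M2_A to 0.27 in M8_2, 0.27 in M17_2 and 0.29 in M19_1. With log2 gene length, r ran from -0.36 in M2_A, -0.35 in M16_1 and -0.27 in M17_1 to 0.25 in M19_1. By gene length, Nos1 had 11151 bases, Ret 7341, Prph 1865 and Uchl1 1616. Snap25 had 6791, Elavl4 5387, Tac1 3399 and Vip 1527, so length did not divide the sets. The smooth muscle genes are GC-rich as well, with a median of 53.0% GC against 49.6% over the genes tested. Over all genes, r with the muscle score rose with GC content (r = 0.27 across 20021 genes, which are not independent replicates).

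The correlations were therefore repeated on values from which a smooth trend on GC content and length had been subtracted in each library, a step chosen after the data were seen. The difference between the sets in r with the score was then gone. Prph had r of 0.60 (permutation p = 0.0375), Snap25 0.53, Elavl4 0.52, Tac1 0.51 and Uchl1 0.45, Vip 0.37, Ret 0.36 and Nos1 0.35, while Chat stayed below 0 at -0.14. Of the 9 members, 1 had a permutation p under 0.05, against 4 before, and the median r of the 9 rose from 0.25 to 0.45. Without M10_2 and M13_1 as well, 2 members had such a p, and the median r was 0.52. They were Tac1 (r = 0.67, permutation p = 0.0350) and Prph (r = 0.65, permutation p = 0.0454). With all mice kept, the slopes of the 8 genes other than Chat lay between 0.71 and 1.07 per unit of the score, with 0 at an unadjusted p under 0.05, where 258 of the 20311 genes tested had one with a positive slope (1.27%). A neuron gene that followed muscle content in proportion would have a slope of 1, and the errors of these slopes, from 0.47 to 0.88, do not separate such a slope from none. The 16 pairs between the sets had a median r of 0.56 after the adjustment, against 0.27 before, while the pairs within them stayed higher, with medians of 0.76 among Ret, Nos1, Uchl1 and Prph and 0.87 among Vip, Tac1, Elavl4 and Snap25. The adjustment takes out GC content and length together. The part of base composition, of gene length and of tissue content in the split was not tested.

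**Figure D5:**
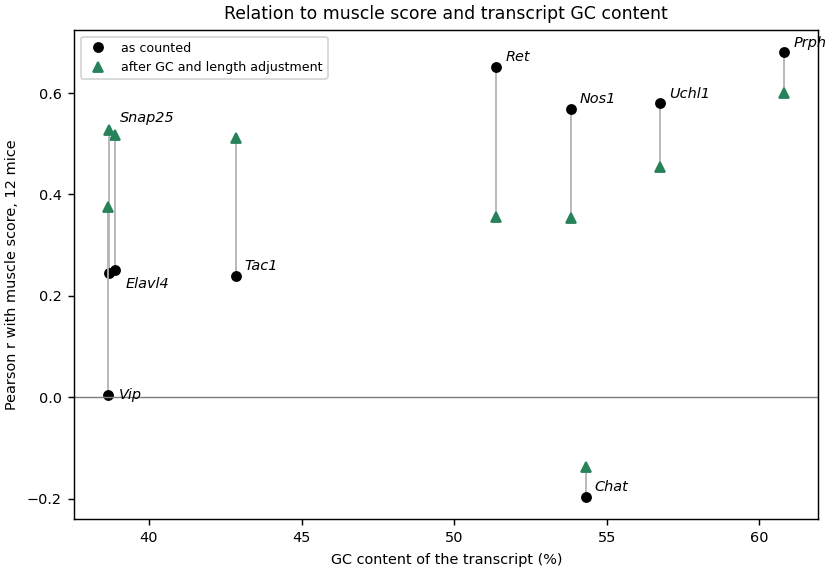
Pearson's r with the muscle score over 12 mice for each enteric neuron gene, against the GC content of its longest transcript in percent, from CPM as counted (black circles) and after adjustment for GC content and length (green triangles). The 4 genes below 43% GC rise to between 0.37 and 0.53 on adjustment, Ret and Nos1 fall to 0.36 and 0.35, and Chat stays below 0.

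Other cell types were set beside the members in the same way. With the glia score (8 genes, among them Sox10 and S100b), r was 0.90 for Ret, 0.80 for Nos1, 0.75 for Prph and 0.74 for Uchl1, and between -0.13 and 0.20 for the other 5. After the GC and length adjustment, it was 0.80 for Ret and 0.75 for Nos1, and Vip rose to 0.33. With the epithelium score, r was lowest for Elavl4 (-0.68) and Snap25 (-0.62) and highest for Ret (0.42), with Prph at -0.05 and Uchl1 at -0.07. After the GC and length adjustment, this r was 0.20 for Ret and negative for every other member. It then lay between -0.69 for Elavl4 and -0.19 for Nos1, with Prph at -0.62 and Uchl1 at -0.44. M18_b, the lowest mouse for 7 of the 9 members, had the highest summed epithelium level, 15022 CPM.

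Some members are also expressed outside neurons, Tac1 in enterochromaffin cells, Snap25 and Uchl1 in hormone cells of the epithelium and Chat in tuft cells. With the score of 10 enteroendocrine genes, r was 0.74 for Vip, 0.58 for Chat, 0.56 for Tac1, 0.38 for Snap25 and 0.32 for Elavl4. It was -0.14 for Prph, -0.22 for Uchl1, -0.33 for Ret and -0.45 for Nos1. After the GC and length adjustment, it was 0.82 for Chat, 0.60 for Vip, 0.43 for Tac1, 0.41 for Snap25 and 0.39 for Elavl4. Prph and Uchl1 then changed sign, to 0.21 and 0.07, and Ret and Nos1 stood at -0.08 and -0.16. The enteroendocrine genes summed to between 326 and 661 CPM per mouse. With the tuft score of 7 genes, which summed to between 36.3 and 71.3 CPM, r was 0.36 for Chat. Their part in the members' levels was not tested.

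The 10 genes most like the members, by their mean r with all 9 over the 12 mice among 16144 other named genes of at least 0.5 CPM, were Pirt, Kcnc2, Pcsk2, Mapk10, Jakmip2, Klhl32, Dpp6, Unc13c, Dnajc6 and Syt1. Their mean r lay between 0.70 for Syt1 and 0.72 for Pirt. Of these, 1 was on a list of neuronal genes used here, Syt1, the calcium sensor of vesicle release. After the GC and length adjustment, 4 of the 10 (Pirt, Kcnc2, Unc13c and Syt1) were again among the 10 most like, now with Gap43, a growth cone gene of the axon list.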

How the data were processed

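Total RNA of 12 proximal colon samples was sequenced. The authors deposited 1 table of raw counts per mouse, with gene lengths, made with featureCounts from STAR alignments (version 2.3.0) to GRCm38.p2, as the submitters' processing notes give them. Strandedness and the annotation release are not given in the sources used here. The members and gene lists were chosen with earlier results of these data known. Genes that reached 10 counts in 3 or more mice were fitted with edgeR 4.0.16 (TMM, quasi-likelihood, genotype, all 12 mice), with DEGs at FDR under 0.05 and at least 2-fold. DESeq2 1.42.0 was an alternative. The muscle score was added as a second term. CPM and RPKM were computed from the counts with TMM factors, which lay between 0.910 and 1.10. The plan did not name the scaling of CPM. TMM scaling, as in the fits, was kept after correlations under both scalings had been seen, and CPM by total counts is given as an alternative. Permutation p-values used 100000 resamples, or all orders within 6 mice. Named genes were the 9 members and, per list, genes past the DEG threshold, otherwise the 2 highest and the 2 lowest log2 fold changes. Some genes that this rule names are not reported here. Coordinates and transcript GC content come from GENCODE M21 and promoter sequences from RefSeq, and symbols matched 37607 of 38924 IDs. Scripts were tested on simulated data with dispersions capped below those of the mice, which checks the code and not the power at the spread of these mice. Depth was 50313805 to 197914821 counts, at which 3 counts are 0.0152 to 0.0596 CPM. The 30 pairs of libraries within groups differed by more than sampling noise (chi-square per degree of freedom 36.6 or more). The study received its mice in separate shipments and states that the sequenced mice sample all of these cohorts. The labels give no shipment or batch, so no comparison within batches was made.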

Additional observations from a re-analysis of the deposited data

How the results depend on the processing

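In the genotype comparison, the count of members called was 0 under every alternative run, and the muscle score called 0 members and 0 genes. Over all genes, the count called by genotype moved from 0 to 27 by DESeq2, 15 by the likelihood ratio test and 11 by edgeR's exact test, with 2 of the listed genes called by each, Tgm3 with Hoxb13 by DESeq2 and Tgm3 with Hoxd13 by the other 2, all of the distal identity list. Leaving out 1 mouse at a time gave 0 called throughout, and a difference in muscle content from 0.12 to 0.28 (exact permutation p from 0.00216 to 0.245). Vip changed direction by genotype without M10_2 and M13_1 (0.057), after the GC and length adjustment (0.050) and in 3 of 12 fits without 1 mouse (-0.21 to 0.070). Its r with the muscle score changed sign within the WT mice (-0.13), with RLE factors (-0.037) and in 6 of 12 sets of 11 mice (-0.21 to 0.48). Other changes of sign in r were Nos1 within the APC Min/+ mice (-0.11), Snap25 within the WT mice (-0.024) and Chat within the WT mice (0.030), without the 2 mice farthest in score (0.16), relative to the epithelium score (0.58), with CPM by total counts (0.041) and without 1 mouse (-0.58 to 0.11).

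With CPM by total counts, added after seeing the data, r rose to 0.78 for Prph, 0.73 for Ret, 0.71 for Uchl1 and 0.71 for Nos1. With the muscle score as the log2 of summed CPM, 1 of 9 members (Prph, r = 0.61) had a permutation p under 0.05. Subtracting the epithelium score from both measures gave 7 of 9, and adds a shared term to both by construction. No paired analysis was possible because the labels give no replicate numbers shared by the genotypes.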
